A study of Mus musculus with 20 samples.

Results

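Antigen presentation genes encode the proteins that carry peptides to the cell surface for inspection by T cells. The 10 described here were taken by symbol from tables of 23284 genes measured in each of 20 mouse hearts. They were B2m, H2-K1, H2-D1, Tap1 and Psmb8 of the class I pathway, and Cd74, H2-Aa, H2-Ab1, H2-Eb1 and Ciita of the class II pathway. In the class I pathway, the proteasome subunit encoded by Psmb8 cuts proteins made inside the cell, the transporter subunit encoded by Tap1 moves the peptides into the endoplasmic reticulum, and the heavy chains encoded by H2-K1 and H2-D1 bind them together with the light chain encoded by B2m. Nearly all nucleated cells make class I molecules. In the class II pathway, H2-Aa and H2-Ab1 encode the chains of one heterodimer, H2-Eb1 encodes the beta chain of another, Cd74 encodes the invariant chain that guards their groove, and Ciita encodes the transcriptional co-activator on which the others depend. Class II molecules are made mainly by dendritic cells, B cells and macrophages, and in the heart by its resident macrophages. Interferon gamma is the textbook inducer of both pathways.

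The hearts came from C57BL/6 mice of 2 genotypes. Control mice were Wnt5a floxed, that is, with recombination sites in the gene for the secreted ligand Wnt5a. CKO mice were Wnt5a floxed with Myh6-Cre/Esr 1, a recombinase driven by the promoter of a heart muscle myosin gene, joined to part of the oestrogen receptor and switched on by tamoxifen, so that recombination is aimed at cardiac myocytes and not at other cells of the heart. Some hearts were taken without an operation when tamoxifen treatment ended. The others were taken 2 or 4 weeks after TAC (transverse aortic constriction, a narrowing of the aorta that loads the left ventricle with pressure) or its sham operation. That gave 10 groups of 2 hearts, each library labelled as its own heart. The labels state no age, sex, tamoxifen dose or operation batch. The series title places Wnt5a with the transcriptional co-activator YAP in the mechanical response of cardiac myocytes. Hearts are named below by the number in their label: among controls 22 and 23 (end of tamoxifen), 12 and 16 (sham, 2 weeks), 11 and 32 (TAC, 2 weeks), 6 and 7 (sham, 4 weeks) and 1 and 2 (TAC, 4 weeks), and among CKO mice 21 and 24, 14 and 15, 13 and 31, 4 and 8, and 3 and 41 in the same order.

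Values are FPKM, that is, fragments scaled to transcript length and to the number of mapped fragments, as deposited. Esr1, whose reads include those of the transgene, lay between 0.101 and 0.465 FPKM in controls and between 197 and 931 FPKM with Cre. Wnt5a ranged from 1.59 to 4.11 FPKM in controls and from 0.853 (heart 41) to 2.33 FPKM in CKO mice, with overlap, which checks the deletion only in part because the floxed stretch is not named. All hearts carried abundant transcripts of cardiac muscle (Tnnt2 at 7324 to 12473 FPKM). The atrial light chain gene Myl7 was 32.2 to 372 FPKM in 5 hearts (11, 14, 16, 21 and 24) and at most 1.66 FPKM in the other 15. Absolute depth is not known from FPKM. Relative depth, read from the steps between low values, ranged from 0.874 to 1.29 between hearts. CKO heart 41, taken 4 weeks after TAC, stood far above the others for all 10 genes, so each result that rests on it is given with and without it.

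Of the 10 genes, 7 lie on chromosome 17 (the mouse major histocompatibility complex), B2m on chromosome 2, Ciita on chromosome 16 and Cd74 on another chromosome. In the mm10 annotation, Psmb8 (chr17:34197721-34201454) starts just after Tap1 (chr17:34187553-34197225), followed by H2-Ab1 (chr17:34257689-34269419), H2-Aa (chr17:34282744-34287823) and H2-Eb1 (chr17:34305867-34316674), with H2-K1 (chr17:33996017-34000347) on one side and H2-D1 (chr17:35262730-35267499) on the other.

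The sequences around the transcription start sites of these genes are given here as a description. The 10 genes moved together from heart to heart, as the values below show, and the part of these sequences in that was not tested. RefSeq start site windows for build GRCm38.p6, 250 bases before to 50 after a start, were found for 7 of the 10 genes: B2m, H2-K1, H2-D1, Tap1, Psmb8, H2-Aa and H2-Eb1. H2-K1 had 2 windows with starts 14 bases apart, so there were 8 windows, and the first of its windows is shown. Class I and class II promoters are known to share a module in which an X box is followed by a Y box. The X box can hold the letters TGACG, and the Y box is the inverted CCAAT box ATTGG. The 5 stretches of 200 bases, 150 before the start and 50 from it on, show where these letters lie in genes of both pathways. Capitals mark CCAAT, whose reverse complement is ATTGG. They also mark TGACG, whose reverse complement is CGTCA, and in B2m an interferon response core, which reads GAAA with any 2 bases before another GAAA.
B2m (chr2:122147537-122147736, plus strand): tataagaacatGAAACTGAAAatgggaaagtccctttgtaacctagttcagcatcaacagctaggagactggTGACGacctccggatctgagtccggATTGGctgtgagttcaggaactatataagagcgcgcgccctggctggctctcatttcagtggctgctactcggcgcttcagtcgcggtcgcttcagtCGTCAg
H2-K1 (chr17:34000298-34000497, minus strand): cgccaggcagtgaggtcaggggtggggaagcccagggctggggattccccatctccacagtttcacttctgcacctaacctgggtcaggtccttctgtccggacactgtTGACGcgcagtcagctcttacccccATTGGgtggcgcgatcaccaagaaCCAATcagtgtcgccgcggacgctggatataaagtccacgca
H2-D1 (chr17:35262944-35263143, plus strand): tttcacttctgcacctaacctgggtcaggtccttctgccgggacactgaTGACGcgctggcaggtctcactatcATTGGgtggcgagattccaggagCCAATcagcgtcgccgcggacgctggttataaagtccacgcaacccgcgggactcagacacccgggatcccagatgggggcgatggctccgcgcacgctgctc
H2-Aa (chr17:34287774-34287973, minus strand): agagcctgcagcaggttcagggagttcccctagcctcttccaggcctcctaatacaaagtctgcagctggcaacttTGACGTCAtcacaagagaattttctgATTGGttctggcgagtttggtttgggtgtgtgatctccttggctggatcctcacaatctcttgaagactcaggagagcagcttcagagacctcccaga
H2-Eb1 (chr17:34305717-34305916, plus strand): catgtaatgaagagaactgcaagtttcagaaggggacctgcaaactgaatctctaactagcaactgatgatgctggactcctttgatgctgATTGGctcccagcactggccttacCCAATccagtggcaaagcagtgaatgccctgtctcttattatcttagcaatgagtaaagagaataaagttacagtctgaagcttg
In the B2m, H2-K1 and H2-D1 windows, TGACG was followed by ATTGG after 20 bases in between, and in H2-Aa after 21 bases. This arrangement, TGACG then ATTGG with 18 to 22 bases in between on either strand, was searched for after the sequences had been read. It occurred in 88 of 32851 RefSeq windows (0.268%), against 5 of the 8 windows here, those of B2m, H2-K1 (both), H2-D1 and H2-Aa. The 2 H2-K1 windows overlap and hold the same site, and the printed H2-K1 and H2-D1 sequences are largely alike around theirs. Because the search followed the reading of these same sequences, the 2 shares carry no test. CCAAT or ATTGG alone occurred in 37.4% of all windows and in 7 of the 8, missing in Psmb8, and TGACG or CGTCA alone in 20.8% and in 6 of the 8. The Tap1 window held CCAAT 222 bases before the start and TGACG 86 bases before it, without the paired arrangement. H2-Eb1 held CCAAT motifs 59 and 35 bases before the start. X boxes without TGACG were not searched for, so H2-Eb1 was not shown to lack one. The exact interferon response core, on either strand, occurred in 3.44% of all windows and, of the 8, in B2m, 139 bases before its start. Near matches were not searched for, so the other windows were not shown to lack an interferon response element. The core TTCNNNGAA, a pattern known from interferon-gamma responsive promoters, occurred in 8.30% of all windows and, of the 8, in Psmb8, 97 bases before its start. The start sites of H2-K1 (first window), H2-Aa and H2-Eb1 were those of the mm10 gene annotation, and those of B2m and Tap1 lay within 3 bases of it. The start sites of H2-D1 and Psmb8 lay inside the annotated genes, at chr17:35263094 and chr17:34198195. These are matches of letters and were not tested for activity.

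The light chain gene B2m was the most abundant of the 10. In control hearts it was 549 and 656 FPKM at the end of tamoxifen, 900 and 431 in sham hearts and 979 and 638 in TAC hearts at 2 weeks, and 416 and 372 in sham hearts and 592 and 981 in TAC hearts at 4 weeks. In CKO hearts it was 662 and 711, then 785 and 522 (sham) and 964 and 928 (TAC) at 2 weeks, and 591 and 454 (sham) and 479 and 3234 (TAC) at 4 weeks. Heart 41, with the last value, stood at 5.07 times the median of the other 19 hearts and 3.30 times the highest of them, heart 2. Heart 3, of the same group, lay between the 2 CKO sham hearts of 4 weeks.

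H2-K1, which encodes a classical heavy chain that presents peptides to CD8 T cells, was, like B2m, lowest in heart 7 and, after heart 41, highest in heart 2. It was 117 and 165 FPKM in control hearts at the end of tamoxifen, 216 and 100.5 (sham) and 213 and 139 (TAC) at 2 weeks, and 107 and 94.3 (sham) and 119 and 218 (TAC) at 4 weeks. The CKO hearts had 154 and 175 FPKM, then 197 and 107 (sham) and 212 and 207 (TAC) at 2 weeks, and 147 and 118 (sham) and 102 and 784 (TAC) at 4 weeks. The other classical heavy chain gene, H2-D1, ranged over the 19 hearts other than 41 from 99.7 to 207 FPKM, with a median of 149, and was 469 in heart 41. It had the smallest excess in heart 41, 3.14 times that median. H2-K1 and H2-D1 belong to a family of near copies: 9.63% of the 50-base words of H2-K1 transcripts and 12.8% of those of H2-D1 also occur in other genes, so their values, and those of the H2-Q and H2-T genes, carry some uncertainty from read sharing.

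Tap1, the peptide transporter subunit, was low in most hearts and had the widest range. Control hearts had 4.16 and 5.08 FPKM at the end of tamoxifen, 6.97 and 2.50 (sham) and 7.21 and 6.29 (TAC) at 2 weeks, and 4.26 and 2.37 (sham) and 3.50 and 10.2 (TAC) at 4 weeks. CKO hearts had 6.02 and 7.10 FPKM, then 5.66 and 2.44 (sham) and 7.14 and 8.10 (TAC) at 2 weeks, and 5.45 and 3.82 (sham) and 3.52 and 40.9 (TAC) at 4 weeks. Lowest was heart 7 and, after heart 41, highest was heart 2, a span of 4.31-fold over the 19 hearts around a median of 5.45. Heart 41 stood at 7.50 times that median and 11.6 times heart 3, the largest excess among the 10 genes. Psmb8, which replaces a constitutive subunit to form the immunoproteasome, ran from 12.8 to 31.5 FPKM in the 19 hearts, with a median of 19.9, and was 101 FPKM in heart 41.

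Among class II genes, Cd74, the invariant chain, was the most abundant. Control hearts had 81.8 and 112 FPKM at the end of tamoxifen, 175 and 91.6 (sham) and 145 and 72.0 (TAC) at 2 weeks, and 91.3 and 103 (sham) and 70.9 and 185 (TAC) at 4 weeks. CKO hearts had 142 and 119 FPKM, then 128 and 92.8 (sham) and 145 and 150 (TAC) at 2 weeks, and 111 and 83.7 (sham) and 62.2 and 541 (TAC) at 4 weeks. The lowest of the 20 hearts and the highest were thus the 2 hearts of one group, 3 and 41. The same held for H2-Ab1 (27.1 against 239 FPKM, with a median of 45.9 over the 19 hearts other than 41) and for H2-Eb1 (23.6 against 198, median 40.2). H2-Aa, the alpha chain that pairs with the product of H2-Ab1, ran from 49.0 to 179 FPKM in the 19 hearts and was 407 in heart 41. The alpha chain partner of H2-Eb1 is encoded by H2-Ea, which C57BL/6 mice are known not to express, and H2-Ea-ps was listed at 0 in all 20 hearts.

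Ciita was the least abundant of the 10. It ran from 0.209 (heart 15) to 0.823 FPKM (heart 2) in the 19 hearts other than 41, with a median of 0.432, and was 2.48 FPKM in heart 41. Its mean was 0.549 FPKM over 20 hearts and 0.448 without heart 41, so it passed the filter on low values (a mean of at least 0.5 FPKM) only through that heart. The other 9 genes passed with and without it.

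Over the 12589 genes that passed the filter, 431 (3.42%) were highest in heart 41 and 63 (0.5%) were there at least 2-fold above the highest of the other 19 hearts, while 10 of 10 antigen presentation genes met both conditions. With genes filtered on the other 19 hearts alone, which leaves out Ciita, 9 of 9 were at least 2-fold above, against 0.445% of all genes. These counts describe 1 library that was singled out with its values known, and carry no test. Over all genes, heart 41 correlated with heart 3 at r = 0.963, the lowest of the 10 pairs within groups (up to 0.978). Its sum of FPKM and its number of genes above 0 lay within the range of the other hearts, and its relative depth was 0.937.

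**Figure D1:**
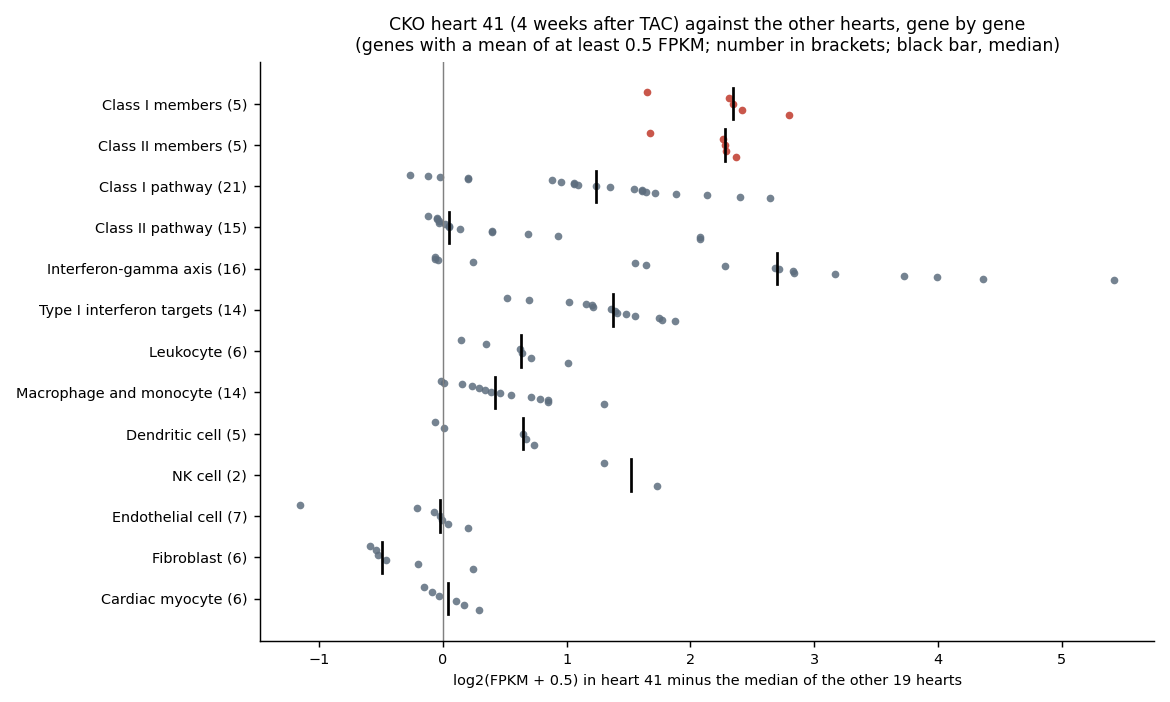
Difference on the log2(FPKM + 0.5) scale between heart 41 and the median of the other 19 hearts for each gene with a mean of at least 0.5 FPKM, by gene list, with the number of genes in brackets and the median as a black bar. The antigen presentation genes (red) and the interferon-gamma axis lie farthest to the right, with medians of 2.34, 2.28 and 2.70. The class I pathway and the type I interferon targets also lie to the right, with medians of 1.24 and 1.37. The median of the class II pathway is 0.05. Medians are 0.63 for leukocyte, 0.42 for macrophage and monocyte and 0.64 for dendritic cell markers. For natural killer cell markers the median is 1.52, from 2 genes. Medians of endothelial cell, fibroblast and cardiac myocyte markers lie near or below 0.

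Other genes of both pathways were read from lists of the remaining pathway components. Of 21 further class I pathway genes that passed the filter, 16 were highest in heart 41 and 8 were there at least 2-fold above every other heart. The shares of all genes were 3.42% and 0.5%. This list and those below were chosen with earlier results of these data known, so their counts carry no test. Nlrc5, the co-activator of class I genes, was 8.84 FPKM in heart 41 and at most 2.29 in the others, and Psmb9, the partner subunit of Psmb8 encoded beside Tap1, was 89.6 against at most 29.4 FPKM. Tap2, the other transporter subunit gene, was 40.3 against at most 19.3 FPKM. The general chaperones of the endoplasmic reticulum did not share this: Calr was 225 FPKM in heart 41 with up to 254 elsewhere, Canx 93.2 with up to 126, and Pdia3 80.5 with up to 125.

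Class II companions lay mostly within the range of the other hearts. Of 15 that passed the filter, 2 were highest in heart 41, both by at least 2-fold: H2-DMa at 30.6 against at most 14.7 FPKM and H2-DMb1 at 14.0 against at most 6.14 FPKM, which encode the chains of the peptide editor H2-DM. The proteases Ctss (48.6 FPKM in heart 41, at most 56.0 elsewhere), Ctsl (155, at most 215) and Lgmn (66.3, at most 84.2) and the promoter-binding factor Rfx5 (2.19, at most 3.34) lay within the range of the other hearts. So did the co-stimulatory genes Cd80, Cd86 and Cd40.

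Genes of the interferon-gamma axis had a median excess in heart 41 of 2.70 on the log2 scale, against 2.30 for the 10 antigen presentation genes. Of 16 tested, 13 were highest in heart 41 and 10 were there at least 2-fold above every other heart, against 3.42% and 0.5% of all genes. This list, too, was chosen with earlier results of these data known, so its median and counts carry no test. The GTPase gene Igtp was 623 FPKM in heart 41 and at most 31.2 in the others, Iigp1 473 against at most 43.6, and Irgm1 218 against at most 23.1. The chemokine gene Cxcl9 was 35.2 FPKM against at most 7.26. The receptor chains Ifngr1 and Ifngr2 and the kinase gene Jak1 were within the range of the other hearts. Ifng itself was listed at 0 in heart 41 and above 0 only in heart 31 (0.114 FPKM). Of 14 targets of type I interferon, 12 were highest in heart 41 and 1, Ifit1, was at least 2-fold above the others (17.8 against at most 7.69 FPKM).

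Markers of the cell types that make class II molecules were set beside these values. In heart 41 the summed FPKM of 6 leukocyte markers was 92.4 (rank 3 of the 20 hearts), with 25.1 to 103 in the other 19 hearts. That of 14 macrophage and monocyte markers was 492 (222 to 625, rank 5), and that of 11 dendritic cell markers 19.1 (9.16 to 22.0, rank 3). For 6 B cell markers it was 0.985 (0.224 to 5.89, rank 18), and for 8 T cell markers 3.10 (0.933 to 3.53, rank 3). In heart 3, of the same group, these sums were 50.6, 270, 11.1, 5.16 and 1.26 in the same order. Among markers that passed the filter, 1 of 6 leukocyte, 2 of 14 macrophage and monocyte and 1 of 5 dendritic cell markers were highest in heart 41. Of these, 0 were at least 2-fold above every other heart. Neutrophil markers (5) summed to 38.6 (1.48 to 274) and atrial myocyte markers (4) to 1.01 (2.08 to 729). The sum of 7 natural killer cell markers was 5.35, the highest of the 20 hearts, with 0.509 to 4.68 in the others: Nkg7 was 2.47 FPKM and Gzma 2.03, while Klrb1c and Klrd1 were listed at 0. Markers of endothelial cells summed to 316 (267 to 459), of cardiac myocytes to 77182 (56227 to 85767), and of fibroblasts to 493, below the 580 to 1125 of the other hearts. The part of any cell type in the heart 41 values was not tested. In whole hearts, a change in the number of cells of a type and a change in RNA per cell cannot be told apart.

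**Figure D2:**
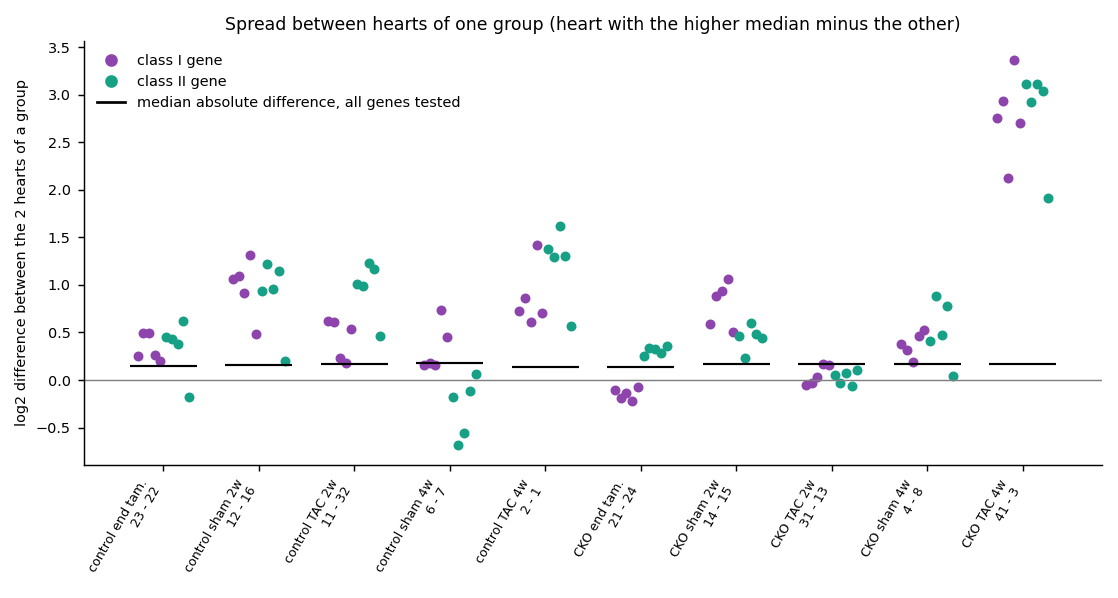
Log2 difference between the 2 hearts of each group for the 10 genes (points, class I in purple, class II in green), taken as the heart with the higher median minus the other, with the median absolute difference of all genes tested as a black bar. In 6 of 10 groups all 10 genes are higher in the same heart, and CKO hearts 41 and 3 differ by 1.92 to 3.37.

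In 9 of the 10 groups the median absolute difference between the 2 hearts was larger for these genes than for all genes. The median absolute log2 difference between the 2 hearts of a group, over all genes tested, was 0.14 to 0.17. For the 10 genes, control heart 2 exceeded heart 1 by a median of 1.08, control heart 12 exceeded heart 16 by 1.01, control heart 11 exceeded heart 32 by 0.61 and CKO heart 14 exceeded heart 15 by 0.55. In 6 of the 10 groups all 10 genes were higher in the same heart, and in 7 groups at least 9 were. The median absolute difference was 0.18 for control hearts 6 and 7, against 0.17 for all genes, and 0.24 for CKO hearts 21 and 24, against 0.14, with no common direction in either pair. For CKO hearts 13 and 31 it was 0.06, below the 0.17 of all genes.

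The 10 groups had no order that stood clear of this spread. Ranked by mean FPKM, CKO hearts 4 weeks after TAC came first for all 10 genes, and control sham hearts at 4 weeks last for 7 of 10. The first place rested on heart 41: the remaining heart of that group, heart 3, ranked between 16 and 20 of the 20 hearts for each gene. For B2m the first was 1856 ± 1950 FPKM (SD, n = 2), followed by CKO hearts 2 weeks after TAC (946 ± 25.4), and the last was 394 ± 30.9. Of the 9 steps between neighbouring groups, 1 separated the hearts without overlap for B2m, H2-K1 and H2-D1, and 0 did for the other 7 genes. Group means of CKO hearts 4 weeks after TAC describe neither of their hearts.

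**Figure D3:**
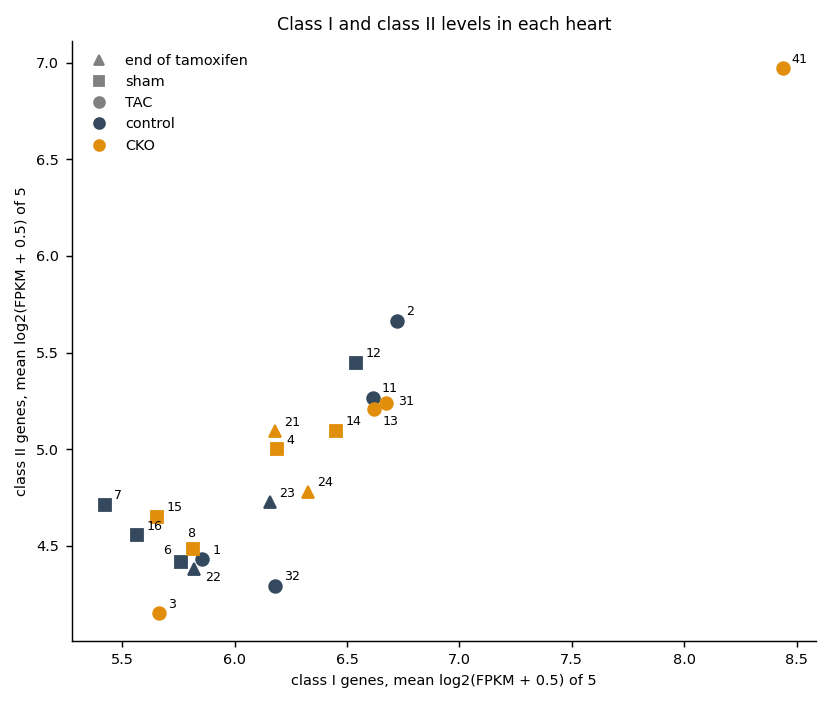
Mean log2(FPKM + 0.5) of the 5 class I genes (horizontal) against that of the 5 class II genes (vertical) in each heart, with the heart's number, genotype by colour and operation by shape. Hearts lie along a rising band from heart 3 and heart 7 to heart 2, and heart 41 continues it at 8.44 and 6.97.

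Class I and class II genes went together across hearts. The mean log2(FPKM + 0.5) of the 5 class I genes and that of the 5 class II genes correlated at r = 0.923 (Spearman's rho 0.820) over 20 hearts, at r = 0.810 (rho 0.790) over the 19 without heart 41, and at r = 0.876 (rho 0.865) over 17 hearts when 7 and 16, the 2 of the 19 farthest from the median class I mean, were also left out. Hearts of a group share genotype, operation and time, so these are descriptions with no test. Over 19 hearts the median r between single genes was 0.91 within class I (10 pairs), 0.91 within class II (10 pairs) and 0.73 between the classes (25 pairs). The 2 classes parted most in control hearts 7 and 32: class I exceeded class II by 0.71 in heart 7, whose class I mean was the lowest of 20, and by 1.88 in heart 32.

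Genes outside the 10 with the most similar pattern were ranked by Pearson's r with each class mean over the same hearts. For class I over 20 hearts the first were Psmb9 (r = 0.969), Irf1 (0.962), H2-Q4 (0.957), Gbp7 (0.954) and Irf9 (0.953), and over the 19 hearts without heart 41 H2-Q7 (0.967), H2-Q4 (0.942), H2-Q8 (0.937), Psmb9 (0.919) and Gm4902 (0.911). For class II over 20 hearts they were Cxcl9 (0.928), Psmb9 (0.910), Dtx3l (0.905), Irf1 (0.905) and Gbp2 (0.900), and over 19 hearts Irgm1 (0.840), Cxcl9 (0.817), Trim12a (0.806), Cyp39a1 (0.801) and Fam189b (0.785). Psmb9 and Irf1 were among the first 10 for both classes with and without heart 41. The part of shared reads in the likeness of the H2-Q genes to H2-K1 and H2-D1 was not tested.

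Comparisons between groups were fitted with limma, a linear model with moderated variances, on log2(FPKM + 0.5) for all 12589 genes. A gene was called when its Benjamini-Hochberg adjusted p over these genes was under 0.05. Across 17 comparisons 0 of the 10 genes were called and 0 had an unadjusted p under 0.05, while the share of all genes called ran from 0.00794% to 31.4%. The smallest unadjusted p was 0.0531, for B2m. Standard errors show the spread described above: for differences between 2 sets of 4 hearts they were 0.31 to 0.56 for these genes against a median of 0.115 for all genes, and for those between 2 groups of 2 hearts 0.44 to 0.79 against 0.162. For differences between 2 responses or changes they reached 1.12. In each comparison the median difference over all genes lay between -0.0037 and 0.021. P-values measure only the spread between these hearts. A miss of the threshold here does not show that levels were alike.

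The first question was whether pressure load changed these genes in control hearts. Over both times, B2m was 592 to 981 FPKM in the 4 TAC hearts and 372 to 900 in the 4 sham hearts, Tap1 3.50 to 10.2 against 2.37 to 6.97, and Cd74 70.9 to 185 against 91.3 to 175, so the hearts overlapped. The log2 difference between TAC and sham was 0.65 ± 0.43 (SE) for B2m, 0.72 ± 0.56 for Tap1, 0.41 ± 0.36 for H2-D1 and -0.03 ± 0.51 for Cd74. Limma called 0 of the 10 genes (adjusted p 0.277 to 0.970), with 31.4% of all genes called, and their median difference was 0.35. At 2 weeks limma called 0 of 10 (23.8% of all genes called), and 0 of 10 had hearts without overlap, while 30.0% of all genes were higher and 31.3% lower in both TAC hearts. At 4 weeks limma called 0 of 10 (12.7% of all genes called), with differences of 0.24 to 0.95, and both TAC hearts lay above both sham hearts for 4 genes, B2m, H2-K1, H2-D1 and H2-Eb1, against 28.1% of all genes.

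The call of B2m in control hearts depended on which hearts outside the comparison entered the estimate of spread. Without heart 41, which is a CKO heart, the difference stayed at 0.65 with an SE of 0.23 and an adjusted p of 0.0477, and B2m was called (1 of 9 genes tested, 31.7% of all genes). With no filter on low values as well, the SE was 0.24 and the adjusted p 0.0826, and the call was lost. It was called likewise without CKO heart 3 (adjusted p 0.0464, 31.7% of all genes). Both settings remove the difference between hearts 3 and 41 from the shared estimate of spread. In a fit of only the groups compared, which leaves out all hearts outside them, B2m was not called. Without control heart 16 the difference was 0.38, without control heart 12 it was 0.91.

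Of the other pathway genes, 4 of 21 in class I and 4 of 15 in class II passed in control hearts, with 31.4% of all genes called. With so few genes these shares are not read as different. In class I, 2 rose over both times, Mr1, which presents vitamin metabolites (0.85 ± 0.10, adjusted p 4.4e-05), and the proteasome subunit gene Psmb10 (0.71 ± 0.23, adjusted p 0.0277), and 2 fell, the chaperone genes Canx (-0.47 ± 0.07, adjusted p 0.000139) and Calr (-0.36 ± 0.10, adjusted p 0.0149). In class II, 4 rose and 0 fell: Cd40 (1.04 ± 0.22, adjusted p 0.00259), Ctss (0.94 ± 0.24, adjusted p 0.00826), Ifi30 (0.73 ± 0.24, adjusted p 0.0295) and Cd80 (0.53 ± 0.19, adjusted p 0.0468). In the same hearts, 3 of 6 leukocyte markers and 5 of 14 macrophage and monocyte markers rose and 0 fell. The summed leukocyte markers were 68.9 to 101 FPKM in TAC hearts and 25.1 to 90.01 in sham hearts. Their part in the rise of Cd40, Ctss, Ifi30 and Cd80 was not tested. Without heart 41, Cd80 had an adjusted p of 0.0506 and Rfxap fell (-0.23 ± 0.08, adjusted p 0.0394), which gave 3 rises and 1 fall in class II. Psme1 fell as well (-0.45 ± 0.10, adjusted p 0.00513), which gave 2 rises and 3 falls in class I, and all 6 leukocyte markers and 6 of 14 macrophage and monocyte markers rose. Among 16 genes of the interferon-gamma axis, Ifngr1 rose (0.35 ± 0.07, adjusted p 0.00239) and Jak1 fell (-0.24 ± 0.06, adjusted p 0.0113), and of 14 type I interferon targets Ifit2 rose (0.99 ± 0.30, adjusted p 0.0215). Without heart 41, 2 of the former and 3 of the latter rose.

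In CKO hearts at 2 weeks, both TAC hearts lay above both sham hearts for 9 of the 10 genes, all but H2-Ab1, against 30.5% of all genes. The 10 genes moved together from heart to heart, so such counts, here and elsewhere, are not counts of separate results. The lower TAC heart and the higher sham heart had 28.2 and 27.6 FPKM for Psmb8, and 928 and 785 for B2m. For all 10 genes the higher sham heart was heart 14, whose Myl7 was 372 FPKM. Class I genes had differences of 0.37 ± 0.58 (Psmb8) to 0.93 ± 0.79 (Tap1), and class II genes of 0.21 ± 0.72 (H2-Aa) to 0.55 ± 0.44 (Ciita). Limma called 0 of 10 (adjusted p 0.423 to 0.875), with 19.3% of all genes called. Among other pathway genes, Cd40 rose (1.33 ± 0.31, adjusted p 0.0101) and Mr1 rose (0.56 ± 0.15, adjusted p 0.0182), while Canx fell (-0.35 ± 0.09, adjusted p 0.0188). Leukocyte markers rose in 2 of 6 cases and macrophage and monocyte markers in 4 of 14. Without heart 41, which lies outside this comparison but adds to the shared spread, 4 of 6 and 5 of 14 rose. So did 3 of 15 class II pathway genes in place of 1 and 5 of 14 type I interferon targets in place of 0. Of all genes, 19.4% were called in that fit, in either direction.

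At 4 weeks the CKO comparison depended on which of the 2 TAC hearts was read. With both, differences were 0.55 ± 0.51 (H2-D1) to 1.35 ± 0.79 (Tap1), 0 of 10 were called, with 0.262% of all genes called, and adjusted p was 0.407 to 0.684. Without heart 41 all 9 genes tested were lower in the remaining TAC heart, with differences of -0.11 ± 0.40 (B2m) to -0.69 ± 0.61 (H2-Ab1), and 0 were called (0 at an unadjusted p under 0.05), with 0.381% of all genes called. Without heart 3 all 10 were higher, by 1.61 (H2-D1) to 3.03 (Tap1). That fit compares heart 41 alone, which was singled out for its high values of these genes. Calls from it for CKO hearts 4 weeks after TAC are therefore not given here or below. Of the 66 further genes of both pathways, the interferon-gamma axis and the type I interferon targets, limma called 0 with all hearts, and 6 had an unadjusted p under 0.05. In a group left with 1 heart, that heart is given the spread of the rest.

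Over both times, the CKO difference between TAC and sham was 0.91 ± 0.43 for B2m, 1.14 ± 0.56 for Tap1, 0.68 ± 0.51 for Cd74 and 0.62 ± 0.31 for Ciita. Limma called 0 of 10 (adjusted p 0.200 to 0.580), with 9.11% of all genes called. Without heart 41 the differences of the 9 genes tested ran from -0.23 (H2-Aa) to 0.30 (Tap1), and 0 were called, with 5.85% of all genes called. Without heart 3 they ran from 1.09 to 1.98 and 8 of 10 were called, all but H2-Aa and H2-Ab1 (7 of 9 without Ciita), with 7.45% of all genes called. Of the further pathway genes, Psmb10 rose by 0.90 ± 0.23 (adjusted p 0.0251), Cd40 by 0.92 ± 0.22 (adjusted p 0.0197) and Mr1 by 0.36 ± 0.10 (adjusted p 0.0423). Without heart 41, Psmb10 rose by 0.51 ± 0.09 (adjusted p 0.00683), and Cd40 and Mr1 had adjusted p of 0.0665 and 0.103. Of the interferon-gamma axis and the type I interferon targets, limma called 0 genes, with an unadjusted p under 0.05 for 2 of 16 and 8 of 14.

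**Figure D4:**
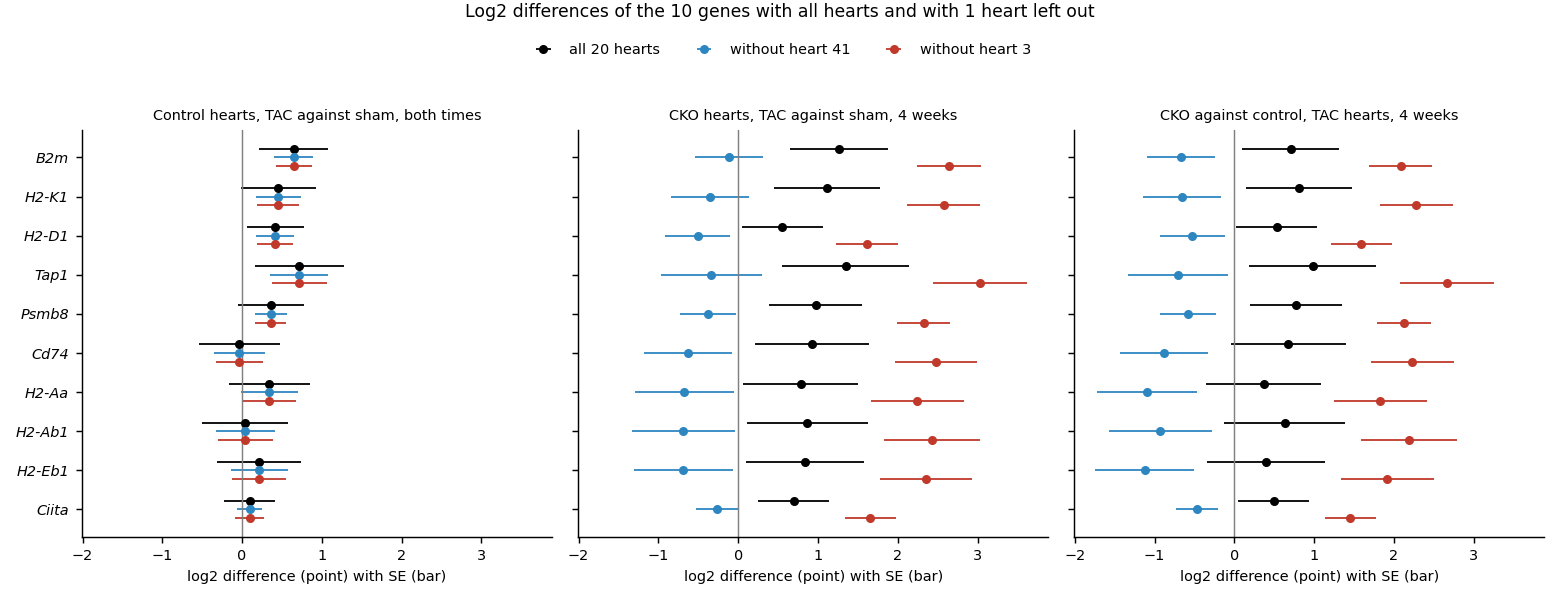
Log2 differences (points) with their SE (bars) for the 10 genes in 3 comparisons, from the fit of all 20 hearts (black), without CKO heart 41 (blue, fitted without a filter on low values so that Ciita is included) and without CKO heart 3 (red). In the control hearts the points coincide and the bars shrink; in both comparisons with CKO hearts 4 weeks after TAC the blue points lie below 0 and the red ones above 1.

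CKO hearts were compared with control hearts at each stage. The genotypes differ in the Cre transgene as well as in the deletion of Wnt5a, and these cannot be told apart here. At the end of tamoxifen, CKO hearts differed from control hearts by 0.14 to 0.46 (median 0.31), and both CKO hearts lay above both control hearts for 6 genes, B2m, Tap1, Psmb8, Cd74, H2-Ab1 and H2-Eb1, against 16.9% of all genes. Limma called 0 of 10 there (adjusted p 1.00 for each), with 0.0159% of all genes called. Both CKO hearts of this stage and neither control heart were among the 5 with Myl7 of 10 FPKM or more, and without those hearts the comparison has no CKO heart left. In sham hearts over both times the differences ran from -0.11 to 0.26, with 0 called of 10 and 0.00794% of all genes called. At 4 weeks both CKO sham hearts exceeded both control sham hearts for B2m, H2-K1 and H2-D1, against 17.1% of all genes, and at 2 weeks 0 of 10 did, against 14.6%. In TAC hearts at 2 weeks they ran from 0.16 to 0.53, with 0 called and 0.413% of all genes called, and both CKO hearts exceeded both control hearts for H2-D1, Psmb8 and Ciita, against 22.3% of all genes.

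At 4 weeks after TAC, the genotypes differed by 0.37 ± 0.72 (H2-Aa) to 0.98 ± 0.79 (Tap1), with 0 of 10 called (adjusted p 0.663 to 0.906) and 0.834% of all genes called. The 2 control hearts lay between the 2 CKO hearts for all but Tap1, where heart 1 (3.50 FPKM) lay just under heart 3 (3.52 FPKM). Without heart 41 the 9 genes tested were lower in the CKO heart, with differences of -0.53 ± 0.39 (H2-D1) to -1.12 ± 0.58 (H2-Eb1), and 0 were called (0 at an unadjusted p under 0.05), with 0.262% of all genes called. Without heart 3 the differences were 1.45 to 2.66, and 5 of 10 were called (B2m, H2-K1, Tap1, Psmb8 and Ciita, or 4 of 9 without the last), with 1.42% of all genes called. Over both times after TAC they were 0.35 to 0.60 with all hearts (0 called, 3.45% of all genes called), -0.35 to -0.10 without heart 41 (0 called, 1.81%) and 0.88 to 1.41 without heart 3 (5 called, 4 without Ciita, 3.64%).

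The response to TAC itself did not differ detectably between genotypes. The CKO response minus the control response was 0.15 to 0.71 over both times, with 0 of 10 called and 1.25% of all genes called, and -0.57 to -0.06 without heart 41, with 0 of 9 called and 0.826% of all genes called. The smallest adjusted p over the 10 genes was 0.678 with all hearts and 0.659 without heart 41. At 4 weeks alone the same quantity was -0.08 to 0.69 (0 called, 0.747% of all genes) and -1.55 to -0.87 without heart 41 (0 called, 0.326%). Without heart 41, Psmb8 was the only one of the 9 with an unadjusted p under 0.05 (0.0465) at 4 weeks. Between genotypes limma called 0 of the 66 further genes before surgery, after sham or after TAC over both times, where 2, 5 and 5 had an unadjusted p under 0.05. Without heart 41, 1 was called after TAC over both times, Rfxap (0.38 ± 0.09, adjusted p 0.0435).

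Time after TAC was compared last. In control hearts the change from 2 to 4 weeks was -0.24 to 0.39, with 0 of 10 called and 2.16% of all genes called. CKO hearts changed by 0.13 to 0.67 with all hearts, with 0 called and 14.9% of all genes called. Without heart 41 all 9 genes tested were lower at 4 weeks, with differences of -0.93 ± 0.39 (H2-D1) to -1.24 ± 0.52 (Cd74). Of these, 5 of 9 had an unadjusted p under 0.05, and 0 were called (smallest adjusted p 0.0848, for Psmb8), with 9.76% of all genes called. Here the 4-week side is heart 3 alone. Without heart 3 the change was 1.19 to 2.35, and 5 of 10 were called, with 5.75% of all genes called. Those 5 were again B2m, H2-K1, Tap1, Psmb8 and Ciita (4 of 9 without Ciita). In CKO hearts Cd274, which encodes the checkpoint ligand PD-L1, rose from 2 to 4 weeks (1.91 ± 0.60, adjusted p 0.0470), and without heart 41 its difference was 0.47 with an adjusted p of 0.344. Without heart 41, some of the 66 further genes were lower at 4 weeks, among them H2-DMb1, Ifi30, Lgmn, Cxcl9, Cxcl10, Irf7 and Ifi44. These differences compare heart 3 alone, and many genes outside the lists changed in that fit. They are therefore not read as a result about these lists. In the same fit some macrophage and monocyte markers were lower as well, and their part in these differences was not tested. The change with time in CKO hearts minus that in control hearts was -0.04 to 0.82, with 0 called and 0.00794% of all genes called, and without heart 41 it was -1.56 to -0.69 (0 of 9 called, 1 with an unadjusted p under 0.05, 0.0397% of all genes called). From the end of tamoxifen to 2 weeks after sham, over both genotypes, the 10 genes changed by -0.42 (Tap1) to 0.32, with 0 called and 0.913% of all genes called.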

How the data were processed

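RNA was measured in 20 mouse hearts in 10 groups of 2. FPKM per gene were deposited by the authors, 1 table a heart. Per the submitters' processing notes, TopHat2 2.1.1, Bowtie2 and Cuffdiff 2.2.1 were used with mm10, and per the labels' protocols RNA was isolated with miRNeasy Mini and libraries made with TruSeq Stranded mRNA. FPKM hide the depth, so no count test or counting interval was possible. Relative depth (0.874 to 1.29) came from low-value steps.

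Values were taken as log2(FPKM + 0.5) for 12589 genes whose mean reached 0.5 FPKM. Limma 3.58.1 (R 4.3.3) fitted 1 mean per group, with 10 residual degrees of freedom and a trended prior, and gave 17 comparisons with Benjamini-Hochberg adjustment over all genes. A difference is on this log2 scale, which understates changes of low genes such as Ciita. The members, lists and comparisons were chosen with earlier results of these data known. All 10 members are named, and other genes where they passed the test, stood out in heart 41 or had the most similar pattern. The steps were tested on simulated data. Alternatives were other pseudocounts (0.1, 1), filters (none, 3), scalings, samples, weights, and each heart left out. Hearts outside the compared groups were also left out in turn, and hearts with Myl7 of 10 FPKM or more together with heart 41, both chosen after seeing the data. Positions are from GENCODE M21 and promoters from RefSeq. Some marker genes, Adgre1, Ighm and Ly6g, were not analysed here.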

Additional observations from a re-analysis of the deposited data

How the results depend on the processing

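No paired analysis was possible because each replicate number in the labels belongs to 1 heart only. With groups of 2 hearts, leaving one out leaves a group with 1 heart, assumed to vary like the other groups, and after heart 3 is left out CKO hearts 4 weeks after TAC are represented by heart 41 alone. Under other pseudocounts, filters, scalings, priors, weights or only the groups compared, 0 members were called and no difference changed sign among those followed here. The weights were equal for hearts 3 and 41, so that setting could not lower one against the other. Members called ranged, with 1 heart left out, from 0 to 1 for TAC against sham in control hearts over both times, from 0 to 8 in CKO hearts over both times and 0 to 6 at 4 weeks, and from 0 to 5 for CKO against control after TAC over both times, after TAC at 4 weeks, and for 4 against 2 weeks after TAC in CKO hearts. With heart 41 and the 5 hearts at or above 10 FPKM of Myl7 left out, 1 member was called for TAC against sham in control hearts at 4 weeks (B2m, 9.94% of all genes called) and 1 in CKO hearts at 2 weeks (H2-D1, 13.8% of all genes called).

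For TAC against sham in control hearts over both times, the log2 differences with 1 heart left out ran from -0.38 to 0.31 for Cd74, from -0.36 to 0.44 for H2-Ab1, from -0.11 to 0.54 for H2-Eb1 and from -0.0493 to 0.23 for Ciita. With those 5 Myl7-rich hearts left out, also together with heart 41, they were -0.21 for H2-Aa, -0.51 for H2-Ab1 and -0.36 for H2-Eb1, and without the former alone -0.0739 for Ciita. In CKO hearts over both times, leaving out 1 heart gave -0.0077 to 1.35 for Psmb8, -0.10 to 1.46 for Cd74, -0.23 to 1.23 for H2-Aa, -0.21 to 1.35 for H2-Ab1 and -0.20 to 1.32 for H2-Eb1, and the Myl7 hearts and heart 41 together gave -0.18 for H2-Aa, -0.0581 for H2-Ab1 and -0.0784 for H2-Eb1.

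In CKO hearts at 4 weeks, the lowest values came without heart 41 and the highest without heart 3: -0.11 to 2.64 for B2m, -0.36 to 2.57 for H2-K1, -0.51 to 1.61 for H2-D1, -0.34 to 3.03 for Tap1, -0.38 to 2.32 for Psmb8, -0.63 to 2.48 for Cd74, -0.68 to 2.25 for H2-Aa, -0.69 to 2.43 for H2-Ab1 and -0.69 to 2.35 for H2-Eb1. For CKO against control 4 weeks after TAC they were -0.67 to 2.08 for B2m, -0.65 to 2.28 for H2-K1, -0.53 to 1.59 for H2-D1, -0.70 to 2.66 for Tap1, -0.58 to 2.13 for Psmb8, -0.88 to 2.23 for Cd74, -1.09 to 1.83 for H2-Aa, -0.93 to 2.19 for H2-Ab1 and -1.12 to 1.92 for H2-Eb1. In both comparisons the lowest value was also that without the Myl7 hearts and heart 41. Depth is unknown from FPKM, and 2 hearts a group limit the precision.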
